A study of Mus musculus with 21 samples.

Results

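The 42 genes described here belong to 6 mouse solute carrier families that move amino acids across the plasma membrane or the membranes of lysosomes. They were taken by symbol from the 40838 genes of each deposited count table, as 7 genes of family SLC1, 2 of SLC3, 15 of SLC7, 4 of SLC36, 11 of SLC38 and 3 of SLC43. The rule used gene names only, but it was set with earlier results of these data known. The RNA came from mouse embryonic stem cells (ESCs), which can form all tissues of the embryo, after 48 h in medium with 0.2 mM pyruvate and 10% dialyzed serum, conditions that all 8 groups shared. The first table held 3 libraries with an empty vector and 3 with LbNOX, a bacterial oxidase that turns NADH into NAD+, all in a medium called SL, read here as serum with leukemia inhibitory factor. The second table held a line called chr8A, read as the control, and SLC16A1 clones 1 and 2, with 3 libraries per line in SL and 2 per line in SL2i, read as SL with inhibitors of GSK3B and MEK. Slc16a1 encodes MCT1, a plasma membrane carrier of pyruvate and lactate. Each clone is 1 line, and no source used here says how it was altered.

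Amino acids are charged or polar and cross membranes mainly through such carriers. SLC7 light chains such as LAT1 work as a pair with the SLC3 heavy chain 4F2hc and trade one amino acid for another, the cationic carriers of SLC7 bring in arginine and lysine, the SLC1 carriers take up glutamate or exchange neutral amino acids, and the SLC38 carriers of system A use the sodium gradient to gather small neutral amino acids such as alanine and glutamine. Members of SLC36 and SLC38 on lysosomes let amino acids out and take part in signalling to the kinase complex mTORC1, and members of SLC43 pass large neutral amino acids without exchange. Mouse ESCs are known for their need of threonine and glutamine, and several of these genes are known targets of ATF4, the transcription factor that responds to a lack of amino acids.

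Libraries of the LbNOX table held 16521594 to 30008895 counts. In the clone table the SL libraries held 15802072 to 30145771 and those of SL2i 9784408 to 10908368 counts, so the medium, the set of libraries and the depth cannot be told apart. Slc16a1 was at 195 to 201 CPM (read counts scaled to the library size) in chr8A, 162 to 182 in clone 1 and 91.4 to 96.5 in clone 2 in SL, and at 157 to 167, 122 to 123 and 78.5 to 78.7 CPM in SL2i. All 8 ESC markers examined averaged at least 1 CPM in every group. The sum of the ESC markers was 4139 to 4788 CPM in the SL libraries of both tables and 6912 to 7476 CPM in SL2i. Summed over each list, trophoblast markers were at 561 to 777 CPM in the SL libraries of the clone table and 63.8 to 113 CPM in SL2i, neural markers at 325 to 396 and 56.2 to 66.0 CPM, fibroblast markers at 36.2 to 48.6 and 9.29 to 11.2 CPM (with Col3a1 and Postn at 0 reads in all 3 SL2i groups), and primitive endoderm markers at 22.0 to 27.6 and 5.41 to 10.8 CPM. Some markers went against the sum of their list in all 3 lines: the fibroblast marker Pdgfrb had group means of 1.10 to 1.85 CPM in SL and 6.17 to 6.92 CPM in SL2i, where it made up most of its list's sum. The trophoblast markers Cdx2 (0.568 to 1.198 and 3.85 to 5.48 CPM) and Eomes (6.52 to 7.90 and 8.96 to 16.1 CPM) and the neural marker Sox1 (2.19 to 3.07 and 6.65 to 13.02 CPM) were also higher in SL2i. So was the primitive endoderm marker Pdgfra (0.666 to 0.752 and 0.975 to 1.37 CPM), and the ESC markers Tdgf1 and Utf1 were lower. Sox17 of the endoderm list had only 11 to 15 reads per SL group of the clone table and 4 to 5 per SL2i group, too few to compare. In the LbNOX table, vector replicate 2 and LbNOX replicate 3 differed most from the other libraries of their groups (chi-square per degree of freedom 3.90 to 6.47 and 8.62 to 10.6, against 2.32 and 2.84 between the remaining pairs), and their deviations from the group means had a correlation of 0.68 across 10205 genes. Replicates 1 and 3 of chr8A in SL also differed, with 14.0. Replicates are libraries of the same line, and nothing says that they came from separate cultures, so each p-value is set against a spread between libraries that may be technical.

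Promoter sequences are shown first for members whose start regions hold a motif linked to amino acid supply. RefSeq start windows, from 250 bases before to 50 bases after the start on build GRCm38.p6, were found for 31 of the 42 genes and searched on both strands. Those without a window were Slc1a5, Slc7a2, Slc7a3, Slc7a4, Slc7a5, Slc7a12, Slc7a13, Slc36a2, Slc38a1, Slc38a3 and Slc43a3. The motif TGATGNAA, a C/EBP-ATF response element that ATF4 is known to bind, was present in 3 of the 31 members with a window (Slc7a11, Slc1a4 and Slc7a7). Among all 27025 genes with a window it was present in 4.51%. The 3 sequences below run from 150 bases before to 10 bases after the start, with the motif on either strand in capitals. These 3 genes were called lower in SL2i in all 3 lines, as were 19 of the 33 tested members in all, so their direction was the common one. Of all genes, 36.8% were called lower in chr8A, 37.1% in clone 1 and 37.2% in clone 2. Slc7a11 (chr3:50443604-50443763, minus strand) and Slc7a7 (chr14:54417935-54418094, minus strand, 1 of 5 start windows of that gene) each hold 2 matches, and Slc1a4 (chr11:20332704-20332863, minus strand) holds 1.
Slc7a11: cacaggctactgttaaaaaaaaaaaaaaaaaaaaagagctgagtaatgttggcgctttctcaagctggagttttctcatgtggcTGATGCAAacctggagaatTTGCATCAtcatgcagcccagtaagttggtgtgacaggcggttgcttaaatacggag
Slc1a4: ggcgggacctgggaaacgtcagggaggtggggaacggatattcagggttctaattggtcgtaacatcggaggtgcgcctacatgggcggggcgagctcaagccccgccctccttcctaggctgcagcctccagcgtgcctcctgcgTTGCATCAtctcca
Slc7a7: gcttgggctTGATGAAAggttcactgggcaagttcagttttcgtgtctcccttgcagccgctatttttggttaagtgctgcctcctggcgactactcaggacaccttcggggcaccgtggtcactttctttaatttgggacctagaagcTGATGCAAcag

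The E-box CACGTG, a palindrome that TFEB and TFE3 (regulators of lysosomal genes) and many other factors can bind, was present in the windows of 7 of the 31 genes and of 8.09% of all genes. The longer CLEAR element, a palindrome around the E-box that is typical of lysosomal genes, was in 0 of the 31 and in 0.370% of all genes. The sequences below belong to Slc38a7 (chr8:95853482-95853641, minus strand, 1 match) and Slc36a1 (chr11:55204190-55204349, plus strand, 2 matches), carriers found on lysosomes whose counts rose in SL2i. Of the other members with the E-box, Slc1a6, Slc43a1 and Slc7a14 were called lower in SL2i in all 3 lines. Slc38a5 was called in no line and Slc1a7 was not tested. A match of letters is a description of the sequence and not evidence that a factor binds there.
Slc38a7: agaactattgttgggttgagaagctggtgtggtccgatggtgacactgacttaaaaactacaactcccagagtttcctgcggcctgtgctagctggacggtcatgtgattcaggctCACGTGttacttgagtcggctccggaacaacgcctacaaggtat
Slc36a1: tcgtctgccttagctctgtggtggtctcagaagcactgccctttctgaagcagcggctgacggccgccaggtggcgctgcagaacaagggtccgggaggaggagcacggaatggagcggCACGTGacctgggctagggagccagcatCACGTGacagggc

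Slc38a2, the system A carrier SNAT2, had the highest level per length among the members in SL. Levels between genes are given here as CPM per kilobase of the deposited gene length. In chr8A in SL, Slc38a2 was at 147 ± 1.58 (SD, n = 3) CPM per kb, followed by Slc7a5 (LAT1) at 107 ± 3.79, Slc38a4 at 57.6 ± 2.76, Slc1a5 (ASCT2, a glutamine exchanger) at 49.1 ± 2.01, Slc7a3 at 45.6 ± 1.00, Slc7a7 at 39.3 ± 1.81 and Slc3a2 (the 4F2hc heavy chain) at 31.4 ± 0.66. Slc38a2 and Slc7a5 stood clear of their neighbours in that order by more than these spreads, while Slc1a5 and Slc7a3 lay closer together, with values 49.1 and 45.6. The order depends on the length used: with the longest coding transcript of GENCODE M21, Slc3a2 was next after Slc38a2 at 112 CPM per kb, ahead of Slc7a5 at 107 CPM per kb, since the deposited length of Slc3a2 is 9995 bases and its longest transcript 2813 bases.

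In SL2i, Slc38a2, Slc7a5 and Slc38a4 lay closer together than in SL on the deposited lengths. The order depends on the length used, as in SL, and other members such as Slc1a5 are not ranked here. Slc38a2 was at 72.1 ± 1.37 (SD, n = 2) CPM per kb in chr8A, 54.6 ± 0.026 in clone 1 and 51.5 ± 0.63 in clone 2, and Slc7a5 was at 63.7 ± 4.90, 67.0 ± 2.83 and 63.4 ± 5.29 CPM per kb. Slc38a4 was at 54.4 ± 3.43, 56.3 ± 0.98 and 63.5 ± 1.88 CPM per kb, so it was at or above Slc38a2 in both clones. Summed over the 42 genes, the level was 606 ± 4.62 (SD, n = 3) CPM per kb in chr8A, 659 ± 4.24 in clone 1 and 667 ± 9.16 in clone 2 in SL, against 412 ± 3.45 (SD, n = 2), 397 ± 1.00 and 394 ± 9.59 CPM per kb in SL2i. In the separately normalized LbNOX table the sum was 577 ± 10.6 (SD, n = 3) CPM per kb with the vector and 570 ± 17.9 with LbNOX.

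Of the 42 members, 33 passed the filter on low counts in the clone table and 28 in the LbNOX table. Not tested in either were Slc1a2, Slc1a7, Slc3a1, Slc7a12, Slc7a13, Slc7a15, Slc36a2, Slc36a3 and Slc38a11, which had 0 reads (Slc7a13) to 56 reads (Slc1a2) over the 15 libraries of the clone table. Slc7a9, Slc7a10, Slc7a14, Slc38a5 and Slc38a8 were tested only in the clone table. Some of these passed the filter through the group where they are high, so counts over tested members describe those members and no more.

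The first question was how the carriers differ between the media. In chr8A, 8 of the 33 tested members were higher in SL2i and 20 were lower at an adjusted p under 0.05 (edgeR's quasi-likelihood test, Benjamini-Hochberg adjustment over all genes tested). Calls of either direction covered 72.8% of all 17178 genes tested, so a call in itself says little here. The members differed in direction: the median log2 fold change was -0.85 over the members and 0.00 over all genes, with 36.1% of all genes called higher and 36.8% called lower. In clone 1, 8 members were higher and 20 lower, beside 73.0% of all genes called (35.9% higher, 37.1% lower), with a median of -0.85. Clone 2 had 9 higher and 20 lower members, beside 73.1% called (35.8% higher, 37.2% lower), with a median of -0.91. The libraries of the media did not overlap for 29, 28 and 30 members in the 3 lines, beside 80.8%, 81.3% and 81.5% of all genes. In all 3 lines 19 members were lower and 6 were higher, and Slc38a4 was the 1 member called in both directions. The share of all genes called alike in all 3 lines was not counted, so these counts say little by themselves. The 3 lines do not share libraries in this comparison, but they share 1 fit and the same split of medium and depth. In these bulk samples, fewer cells of a type and less RNA per cell cannot be told apart. The marker sums given above also differ between the media, and their part in these changes was not tested.

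**Figure D1:**
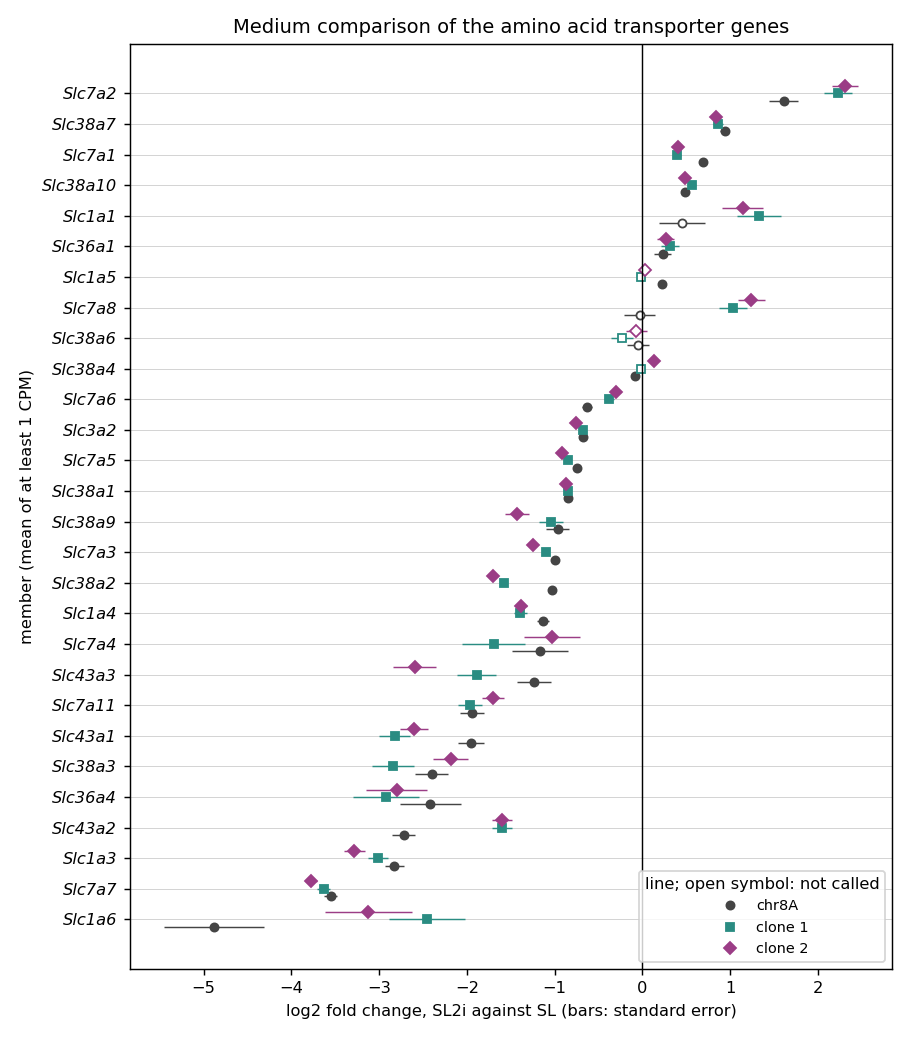
Log2 fold change between SL2i and SL for each member with a mean of at least 1 CPM in the clone table, on the horizontal axis, with 1 row per member and 1 symbol per line (chr8A, clone 1, clone 2). Bars are standard errors and open symbols did not pass the adjusted p of 0.05. Most members lie left of 0, from Slc1a6 at -4.88 in chr8A, and Slc7a2 lies furthest right at 1.61 to 2.31.

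Among the SLC3 and SLC7 exchangers, the heavy chain and its main partners fell, and the size ranged widely. Slc7a7, the light chain y+LAT1 that exchanges cationic for neutral amino acids, was at 140, 132 and 128 CPM in the SL libraries of chr8A and at 12.1 and 10.6 CPM in SL2i. No SL2i library came near the SL range, and the log2 fold change was -3.55 ± 0.07 (SE; adjusted p = 8.04e-69), with -3.63 ± 0.07 in clone 1 and -3.78 ± 0.07 in clone 2. Of its 30-base words, 5.95% also occur in another gene, so some reads may be shared. Slc7a11, the cystine/glutamate exchanger xCT, was at 19.5, 20.5 and 20.4 CPM in SL and 5.80 and 4.64 CPM in SL2i in chr8A, a log2 fold change of -1.95 ± 0.14 (adjusted p = 4.79e-25), with -1.96 and -1.70 in clones 1 and 2.

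Slc3a2 and Slc7a5, which together form the leucine carrier LAT1-4F2hc, fell by similar amounts. Slc7a5 was at 374, 389 and 363 CPM in SL and at 212 and 236 CPM in SL2i in chr8A, with log2 fold changes of -0.75 ± 0.04, -0.85 ± 0.04 and -0.91 ± 0.04 in chr8A, clone 1 and clone 2. For Slc3a2 the libraries were at 309, 322 and 312 CPM in SL and 192 and 199 CPM in SL2i, with -0.68 ± 0.04, -0.68 ± 0.04 and -0.76 ± 0.04. Both genes were separate between the media in every line. Slc7a6 (y+LAT2) fell less, with log2 fold changes of -0.64, -0.39 and -0.30. Slc7a8 (LAT2), another light chain for neutral amino acids, was at 5.01, 6.33 and 5.68 CPM in SL and 5.41 and 5.73 CPM in SL2i in chr8A, where the groups overlapped, but it rose by 1.03 ± 0.16 in clone 1 and 1.24 ± 0.15 in clone 2.

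The cationic carriers of SLC7 moved in opposite directions. Slc7a3 (CAT3) was at 255, 244 and 251.2 CPM in SL and at 121 and 129 CPM in SL2i in chr8A, a log2 fold change of -1.0 ± 0.04 (adjusted p = 7.81e-44). Slc7a1 (CAT1), the widespread arginine carrier, was at 136, 138 and 133 CPM in SL and at 214 and 221 CPM in SL2i, a log2 fold change of 0.69 ± 0.04 (adjusted p = 9.05e-33). Each pair of groups was fully separate, and both clones gave the same directions, with -1.10 and -1.25 for Slc7a3 and 0.40 and 0.41 for Slc7a1. On the deposited lengths, Slc7a3 stood above Slc7a1 in SL (45.6 and 18.4 CPM per kb in chr8A) and below it in SL2i (22.8 and 29.5 CPM per kb), whereas with the longest transcripts Slc7a3 stayed above (45.5 and 30.3 CPM per kb in SL2i).

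Slc7a2 (CAT2) rose most among members with at least 1 CPM. It was at 3.80, 2.99 and 3.74 CPM in SL and at 10.1 and 11.3 CPM in SL2i in chr8A, with log2 fold changes of 1.61 ± 0.16, 2.23 ± 0.16 and 2.31 ± 0.15 in the 3 lines. All its SL2i libraries lay above all SL libraries, and 8.96% of its words are shared with other genes. Slc7a4, a relative of the cationic carriers for which no clear transport has been established, was at 2.06 to 3.72 CPM in SL and 0.99 to 1.55 CPM in SL2i in chr8A, with log2 fold changes of -1.17, -1.69 and -1.03, and 9.88% of its words are shared. With counts thinned to equal depth, its call ended in chr8A (adjusted p = 0.0681) and in clone 2 (adjusted p = 0.104).

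Glutamate carriers of SLC1 were among the members that fell furthest. Slc1a3 (GLAST), known from astrocytes, was at 44.9, 45.2 and 46.4 CPM in SL and 5.31 and 7.504 CPM in SL2i in chr8A, with log2 fold changes of -2.83 ± 0.11, -3.02 ± 0.12 and -3.28 ± 0.12. Slc1a6 (EAAT4) had 232 reads in the SL libraries of chr8A and 2 reads in SL2i, a ratio of 31.5 with a 95% exact binomial interval of 8.62 to 262, which covers counting error only. In the clones its log2 fold changes were -2.45 ± 0.43 and -3.12 ± 0.50. Slc1a1 (EAAC1) went the other way, from 1.53 to 2.48 CPM in SL to 4.33 and 6.05 CPM in SL2i in clone 1, with log2 fold changes of 1.33 ± 0.25 and 1.14 ± 0.23 in the clones and no call in chr8A. Its value is uncertain, since 31.6% of its words also occur elsewhere.

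The neutral exchangers of SLC1 differed from each other. Slc1a4 (ASCT1), which carries serine and alanine, was at 70.8, 70.2 and 67.3 CPM in SL and at 28.5 and 34.7 CPM in SL2i in chr8A, with log2 fold changes of -1.14 ± 0.07, -1.39 ± 0.07 and -1.39 ± 0.07. Slc1a5 was at 133, 143 and 142 CPM in SL and 164 and 161 CPM in SL2i, a rise of 0.22 ± 0.04 in chr8A (adjusted p = 5.01e-06). In the clones its libraries overlapped between the media and no call was made.

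The neighbouring SLC38 genes on chromosome 15, in the order Slc38a1, Slc38a2 and Slc38a4 in the RefSeq annotation, did not move alike. Slc38a2 was at 695, 683 and 682 CPM in SL and at 341 and 332 CPM in SL2i in chr8A, with log2 fold changes of -1.03 ± 0.03, -1.58 ± 0.03 and -1.70 ± 0.03. Slc38a1 (SNAT1) was at 292, 293 and 282 CPM in SL and 151 and 170 CPM in SL2i, with -0.85 ± 0.04, -0.85 ± 0.04 and -0.87 ± 0.04, and 7.20% of its words are shared. Slc38a4 (SNAT4), an imprinted gene, was at 262, 239 and 259 CPM in SL and 250 and 228 CPM in SL2i, and these groups overlapped. Its log2 fold changes were the smallest called, -0.08 ± 0.04 in chr8A (adjusted p = 0.0462) and 0.13 ± 0.04 in clone 2 (adjusted p = 0.00184). The call in chr8A ended without SL2i replicate 2 (-0.04, adjusted p = 0.452), SL replicate 1 (0.117) or SL replicate 3 (0.0584), with DESeq2 (0.0513), with only the groups compared (0.082), and with the replicate number as a block (0.0757). The call in clone 2 ended with no filter (0.06, adjusted p = 0.198) and without SL2i replicate 2 (0.09, adjusted p = 0.0856).

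**Figure D2:**
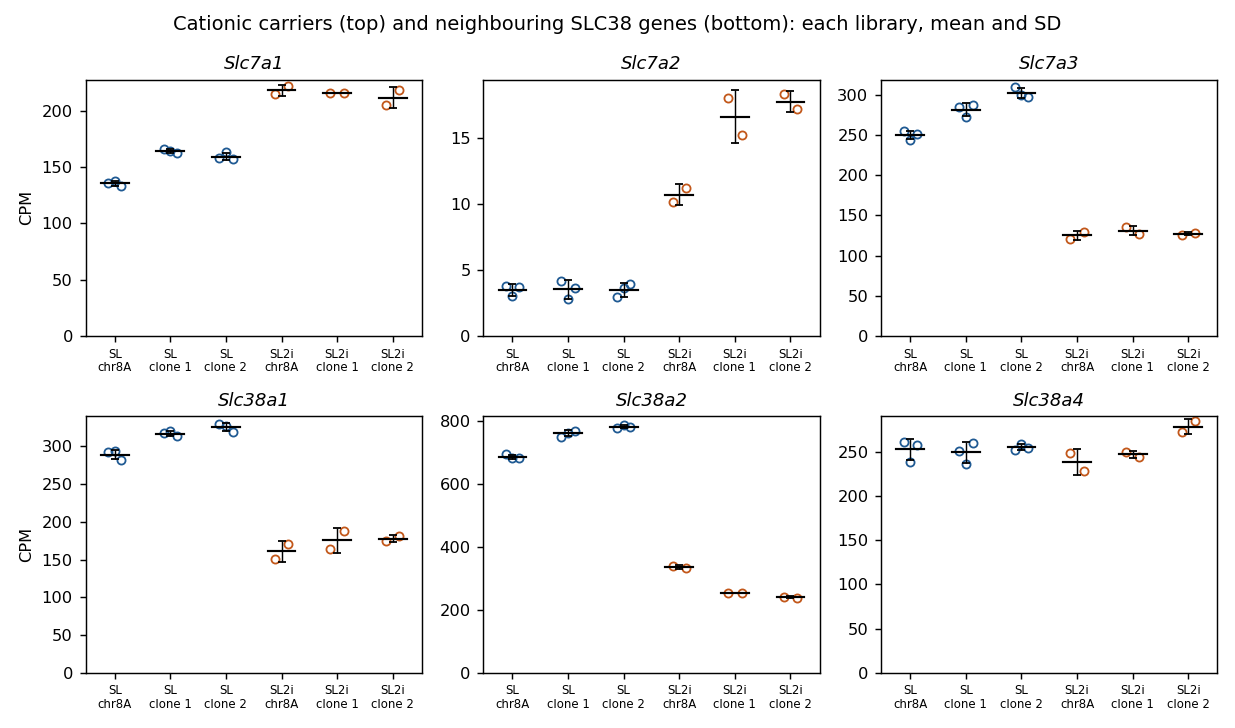
Normalized level in CPM (vertical axis, from 0) of the cationic carriers Slc7a1, Slc7a2 and Slc7a3 and of the neighbouring genes Slc38a1, Slc38a2 and Slc38a4 in each library of the 6 groups of the clone table. Points are libraries, horizontal lines are means and bars are SDs. Slc7a1 and Slc7a2 are higher in SL2i, Slc7a3, Slc38a1 and Slc38a2 are lower, and Slc38a4 stays between 228 and 285 CPM in all groups.

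Of the other SLC38 genes, Slc38a3 (SNAT3, a glutamine carrier of system N) was at 11.9, 13.04 and 14.6 CPM in SL and 2.51 and 2.47 CPM in SL2i in chr8A, with log2 fold changes of -2.40 ± 0.19, -2.84 ± 0.24 and -2.18 ± 0.20. Slc38a9, the lysosomal arginine sensor of mTORC1, fell from 16.3, 16.2 and 16.5 CPM to 5.99 and 10.8 CPM, with log2 fold changes of -0.97 ± 0.13, -1.04 ± 0.14 and -1.43 ± 0.14. The call in chr8A held with either SL2i library left out, but its size was -0.62 without replicate 1 and -1.47 without replicate 2. Slc38a7 (SNAT7), which lets glutamine and asparagine out of lysosomes, rose from 47.0, 50.2 and 45.9 CPM to 89.5 and 93.01 CPM in chr8A, by 0.94 ± 0.05, 0.86 ± 0.06 and 0.84 ± 0.05 on the log2 scale. Slc38a10 rose less, from 88.4 to 95.7 CPM in SL to 125 and 132 CPM in SL2i, with log2 fold changes of 0.49 ± 0.04, 0.56 ± 0.04 and 0.49 ± 0.04, and 5.40% of its words are shared. Slc38a6 was at 12.2, 11.4 and 12.2 CPM in SL and 12.3 and 10.8 CPM in SL2i in chr8A and was not called in any line, and 41.0% of its words are shared with other genes.

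The proton-coupled carriers split as well. Slc36a1 (PAT1), found on lysosomes, was at 16.7, 17.3 and 18.0 CPM in SL and 21.3 and 19.4 CPM in SL2i in chr8A, a rise of 0.23 ± 0.10 (adjusted p = 0.0263), with 0.31 ± 0.10 in clone 1 and 0.27 ± 0.09 in clone 2. The groups did not overlap, but the call in chr8A ended with DESeq2 (adjusted p = 0.064), at equal depth (0.0538), with no filter (0.183), and without SL2i replicate 1 (0.345), SL replicate 1 (0.0853) or SL replicate 2 (0.0553). In clone 2 it ended with no filter (adjusted p = 0.0933) and without SL2i replicate 1 (0.0579) or replicate 2 (0.0807). Slc36a4 (PAT4) fell from 3.51, 3.77 and 2.997 CPM to 0.387 and 0.889 CPM in chr8A, with log2 fold changes of -2.42 ± 0.35, -2.92 ± 0.37 and -2.80 ± 0.35.

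All 3 SLC43 genes fell in all 3 lines, by amounts that differed between lines. Slc43a2 (LAT4), which passes leucine and other large neutral amino acids, was at 26.0, 28.8 and 25.6 CPM in SL and 3.77 and 4.34 CPM in SL2i in chr8A, a log2 fold change of -2.72 ± 0.14, against -1.60 ± 0.11 in both clones. Slc43a1 (LAT3) fell from 17.7, 19.2 and 17.2 CPM to 3.48 and 5.83 CPM in chr8A, with log2 fold changes of -1.96 ± 0.15, -2.83 ± 0.18 and -2.60 ± 0.16. Slc43a3, known as a carrier of purine bases rather than amino acids, fell from 7.68, 7.42 and 7.40 CPM to 2.90 and 3.46 CPM, with -1.24 ± 0.19, -1.89 ± 0.22 and -2.59 ± 0.25.

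The other called members had few reads. Slc38a8 had 1 read in the SL libraries of chr8A and 7 in SL2i, a ratio of 25.8 with a 95% exact binomial interval of 3.31 to 1162 that covers counting error only, and its call ended without SL2i replicate 1 (adjusted p = 0.107). In clone 1, with 2 reads in SL and 11 in SL2i, the ratio was 14.8 (3.24 to 138), and in clone 2 it had 0 reads in SL and 18 in SL2i, at least 22.6-fold higher with a floor of 3 reads over the group. Slc7a14 had 43 reads in SL and 1 in SL2i in chr8A, a ratio of 11.7 (1.99 to 472), and its call ended without SL2i replicate 2 (adjusted p = 0.0675). In clone 1, with 32 and 3 reads and a ratio of 3.95 (1.24 to 20.2), its call ended without either SL2i replicate (adjusted p = 0.178 and 0.0815) or SL replicate 1 (0.113), with DESeq2 (0.0662) and at equal depth (0.086). In clone 2 it had 54 reads in SL and 0 in SL2i, at least 4.77-fold lower with the same floor, and this call held under all 11 settings. The calls of Slc38a8 held under the settings that tested it, 9 in clone 1 and 10 in clone 2. Slc38a8 passed the filter through the SL2i libraries and Slc7a14 through the SL libraries, where each was high. The settings therefore add no support for the calls of either gene. Slc7a10 (Asc-1), with 14.99% of its words shared, had 19 and 25 SL reads in clones 1 and 2 and 0 reads in SL2i, at least 2.35-fold and 2.21-fold lower, and these calls ended without either SL2i library (adjusted p = 0.0503 to 0.0587). Slc7a9, the light chain b(0,+)AT, was called higher in chr8A, with 26 reads in SL and 22 in the shallower SL2i libraries, and not without SL2i replicate 1 (adjusted p = 0.186). Slc38a5 was not called in any line.

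The second question was how the clones differ from chr8A in SL. In clone 1, 7 of the 33 tested members were higher and 1 was lower (edgeR, adjusted p under 0.05), 24.2% of those tested against 16.6% of all genes. Clone 2 had 8 higher members and 1 lower, 27.3% against 26.9% of all genes, a share near the background. Of all genes, clone 1 had 8.83% called higher and 7.77% lower, and clone 2 had 14.3% and 12.6%. For 11 members in clone 1 and 16 in clone 2 no library overlapped chr8A, beside 31.7% and 38.7% of all genes. All called changes were under 2-fold, and the median log2 fold change of the members was 0.05 in both clones, with 0.00 over all genes. Both comparisons use the same chr8A libraries, so the clones' values stand side by side here and are not independent of each other.

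The members called higher in both clones in SL were Slc7a1, Slc7a3, Slc7a5, Slc7a7, Slc3a2, Slc38a1 and Slc38a2. By role these were 2 of the 5 tested cationic carriers, 2 of the 7 tested light chains, and 2 of the 3 genes of system A and its relatives. The share of all genes called higher in both clones was not counted, and both comparisons use the same chr8A libraries. These tallies therefore only describe the members named. Slc7a1 was at 165, 164 and 162 CPM in clone 1 and 157, 163 and 157 CPM in clone 2, all above the 133 to 138 CPM of chr8A. It was higher by 0.27 ± 0.03 on the log2 scale in clone 1 (edgeR, adjusted p = 3.48e-11) and 0.23 ± 0.03 in clone 2 (adjusted p = 2.18e-09). Slc7a7 was at 158 to 168 CPM in clone 1 and 160 to 166 CPM in clone 2, above the 128 to 140 CPM of chr8A, with log2 fold changes of 0.28 ± 0.03 and 0.30 ± 0.03. For Slc7a3, chr8A was at 244 to 255 CPM, clone 1 at 272 to 287 CPM and clone 2 at 297 to 309 CPM, with no overlap between the 3 lines and log2 fold changes of 0.17 ± 0.03 and 0.27 ± 0.03. Slc7a5 was at 421 to 431 CPM in clone 1 and 409 to 428 CPM in clone 2, above all chr8A libraries, with log2 fold changes of 0.18 ± 0.03 and 0.16 ± 0.03. The abundant Slc1a5 overlapped chr8A in both clones and was not called, with -0.00 ± 0.04 and -0.07 ± 0.04 (adjusted p = 0.971 and 0.151). Also not called were Slc38a4, with -0.02 ± 0.03 and 0.01 ± 0.03, and Slc38a9, with 0.03 ± 0.09 and 0.14 ± 0.08.

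Slc38a2 was at 752, 762 and 771 CPM in clone 1 and 779, 788 and 781 CPM in clone 2, above the 682 to 695 CPM of chr8A, by 0.15 ± 0.03 (edgeR, adjusted p = 6.79e-06) and 0.19 ± 0.03 (adjusted p = 6.93e-09) on the log2 scale. Slc38a1 was higher by 0.13 ± 0.03 and 0.17 ± 0.03, also without overlap. Slc3a2 was higher by 0.08 ± 0.03 in clone 1 (adjusted p = 0.0311) and 0.12 ± 0.03 in clone 2 (adjusted p = 0.000667). Its call in clone 1 ended at equal depth (0.04, adjusted p = 0.536), with no filter (0.0562), and without chr8A replicate 1 (0.125) or 3 (0.116) or clone 1 replicate 1 (0.118) or 2 (0.187), and its call in clone 2 ended at equal depth (0.0507). The 8 calls of clone 2 included Slc1a4, at 0.11 ± 0.04 (adjusted p = 0.0439), beside 0.11 ± 0.04 and no call in clone 1 (adjusted p = 0.0884). It lost its call under several settings, down to 0.04 at equal depth (adjusted p = 0.76), 0.08 without chr8A replicate 3 (0.255) and 0.06 without clone 2 replicate 2 (0.39). It also ended without chr8A replicate 1 (0.0576) or 2 (0.0793) or clone 2 replicate 3 (0.0572), with DESeq2 (0.181) and with RLE factors (0.0612).

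Slc38a3 was the member called lower in both clones in SL. Its chr8A libraries were at 11.9, 13.04 and 14.6 CPM, those of clone 1 at 9.63, 10.2 and 7.64 CPM and those of clone 2 at 10.5, 9.36 and 10.3 CPM, so both clones lay below chr8A. The log2 fold changes were -0.53 ± 0.10 (edgeR, adjusted p = 6.08e-05) and -0.40 ± 0.10 (adjusted p = 0.000763), the latter lost at equal depth (-0.29, adjusted p = 0.282). Slc7a11 was at 21.9 to 24.4 CPM in clone 1 and 20.7 to 24.1 CPM in clone 2 against 19.5 to 20.5 CPM in chr8A, with log2 values of 0.19 ± 0.07 (adjusted p = 0.0678) and 0.16 ± 0.07 (adjusted p = 0.0754) that did not pass, although clone 2 passed at equal depth (0.34, adjusted p = 0.0413) and without its replicate 1 (0.20, adjusted p = 0.042). In SL, the sum of the neural markers was 325 to 333 CPM in chr8A and 385 to 396 CPM in the clones, and that of the trophoblast markers was 674 to 699 CPM in chr8A, 737 to 777 CPM in clone 1 and 561 to 620 CPM in clone 2, and their part in the values above was not tested. The neural difference lay mainly in Nes, with means of 220 CPM in chr8A and 290 and 280 CPM in the clones, and the trophoblast marker Tfap2c was lower in both clones (81.1, 63.8 and 71.4 CPM).

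**Figure D3:**
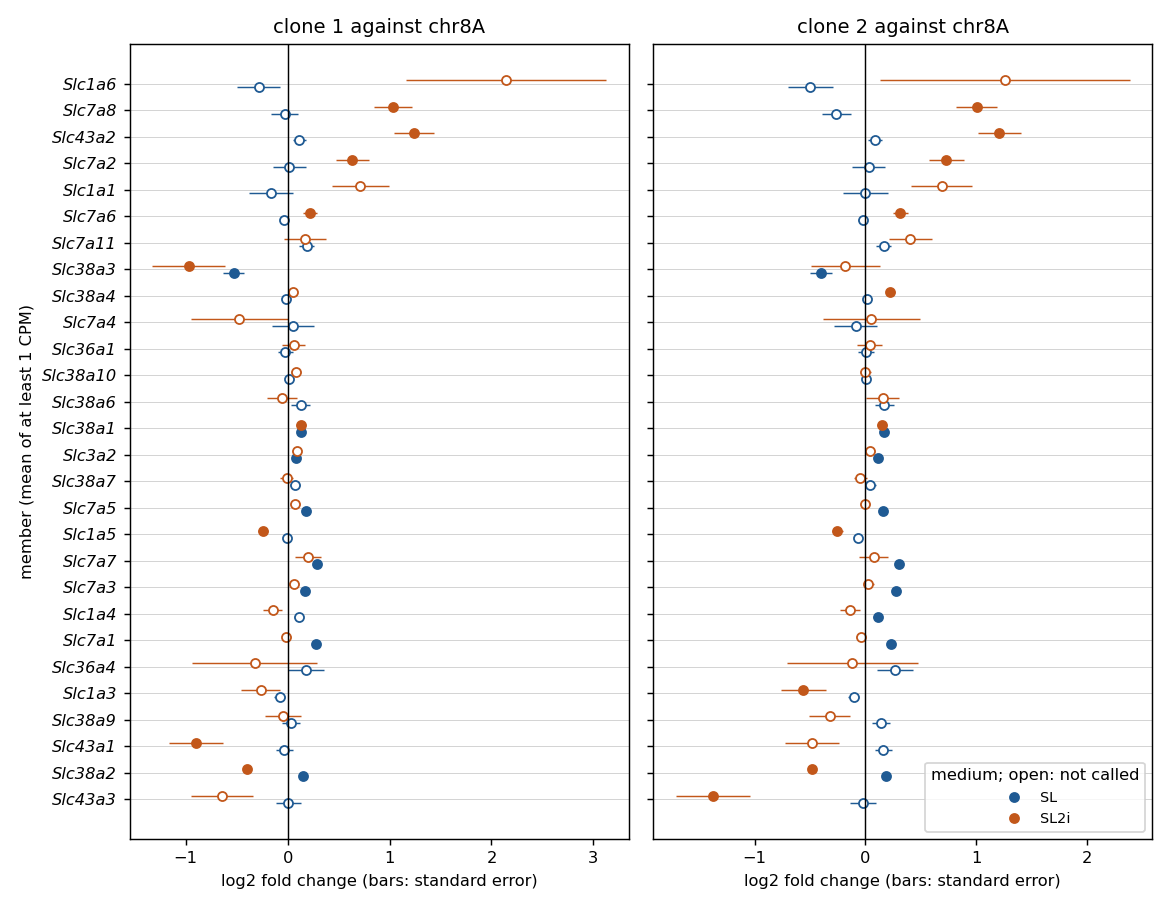
Log2 fold change of clone 1 (left) and clone 2 (right) against chr8A in SL (blue) and in SL2i (orange), 1 row per member with a mean of at least 1 CPM. Bars are standard errors and open symbols did not pass the adjusted p of 0.05. The SL values lie close to 0, from -0.53 for Slc38a3 to 0.30 for Slc7a7 among those called, and Slc43a2, Slc7a8 and Slc7a2 lie to the right and Slc38a2 to the left of 0 in SL2i.

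In SL2i, the clones differed from chr8A in both directions. Clone 1 had 5 higher and 4 lower members, 27.3% of those tested against 22.4% of all genes (10.4% higher, 12.1% lower). Clone 2 had 6 higher and 4 lower members, 30.3% against 20.6% of all genes (9.74% higher, 10.8% lower). The groups have 2 libraries each, and 19 members in clone 1 and 18 in clone 2 had no overlap with chr8A, beside 56.7% and 55.2% of all genes, so separation alone says little. In SL2i the trophoblast marker sum was 63.8 to 71.9 CPM in chr8A and 107 to 113 CPM in the clones, and that of primitive endoderm was 5.41 to 6.62 and 8.68 to 10.8 CPM, and their part in these differences was not tested. The trophoblast sum was carried by Krt8 (means of 14.95 CPM in chr8A, 39.5 and 38.9 CPM in the clones) and Krt18 (4.40, 25.6 and 25.03 CPM), while Tfap2c of that list was lower in the clones (35.5, 25.1 and 25.9 CPM). That of primitive endoderm was carried by Dab2 (1.32, 6.08 and 5.63 CPM), while Gata4 was lower (2.20, 1.16 and 1.42 CPM). Of the neural markers, Sox1 (6.65, 12.9 and 13.02 CPM) and Tubb3 (21.1, 38.2 and 35.6 CPM) were higher in the clones. Nes was lower (30.3, 14.8 and 13.2 CPM). Of the ESC markers, Utf1 (85.6, 157 and 147 CPM) and Esrrb (840, 1078 and 1020 CPM) were higher in the clones. Dppa5a was lower (2202, 1641 and 1739 CPM). The part of these neural and ESC markers was not tested either.

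Of the carriers of large neutral amino acids, Slc43a2 and Slc7a8 were higher in both clones in SL2i, Slc43a1 was called lower in clone 1, and the abundant pair Slc7a5 and Slc3a2 was not called. Slc43a2 was at 3.77 and 4.34 CPM in chr8A, 10.9 and 8.39 CPM in clone 1 and 8.81 and 9.89 CPM in clone 2, so every clone library lay above both chr8A libraries. The log2 fold changes were 1.24 ± 0.19 (edgeR, adjusted p = 1.57e-07) and 1.21 ± 0.19 (adjusted p = 3.65e-07), and 9.45% of its words are shared with other genes. Slc7a8 was at 5.41 and 5.73 CPM in chr8A, 10.2 and 12.5 CPM in clone 1 and 10.5 and 11.8 CPM in clone 2, with 1.03 ± 0.19 and 1.00 ± 0.19. Both genes kept their calls under every setting run. Slc7a5 had log2 values of 0.07 ± 0.05 and -0.01 ± 0.05, with libraries that overlapped chr8A, and Slc3a2 had 0.09 ± 0.04 and 0.04 ± 0.04 (adjusted p = 0.123 and 0.523).

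Slc7a6 was at 50.6 and 52.4 CPM in chr8A, 63.7 and 56.4 CPM in clone 1 and 62.0 and 66.0 CPM in clone 2, with log2 fold changes of 0.22 ± 0.07 and 0.31 ± 0.07. Its call in clone 1 ended without chr8A replicate 1 (0.20, adjusted p = 0.102) or clone 1 replicate 1 (0.13, adjusted p = 0.308). Slc7a2 was at 10.1 and 11.3 CPM in chr8A and at 15.2 to 18.3 CPM in the clones, with 0.63 ± 0.16 and 0.73 ± 0.16, and the call in clone 1 ended without its replicate 1 (0.51, adjusted p = 0.0603). Slc38a1 was higher by 0.13 ± 0.05 and 0.15 ± 0.05, but clone 1 overlapped chr8A, and the calls ended without chr8A replicate 1 (0.05 and 0.07, adjusted p = 0.57 and 0.489), without clone 1 replicate 2 (0.713) or without clone 2 replicate 2 (0.149), and with only the groups compared (0.0882 and 0.0624). That of clone 1 also ended with DESeq2 (0.0556) and at equal depth (0.074). Slc38a4 was higher in clone 2, at 273 and 285 CPM against 250 and 228 CPM, by 0.22 ± 0.04 (adjusted p = 3.2e-05), with 0.05 ± 0.04 and no call in clone 1.

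Slc38a2 was lower in both clones in SL2i. Its libraries were at 341 and 332 CPM in chr8A, 255 and 255 CPM in clone 1 and 242 and 238 CPM in clone 2. All 4 clone libraries lay below chr8A, by 0.40 ± 0.04 (edgeR, adjusted p = 2.62e-16) and 0.49 ± 0.04 (adjusted p = 6.31e-21) on the log2 scale. Slc1a5 was at 164 and 161 CPM in chr8A, 127 and 147 CPM in clone 1 and 135 and 137 CPM in clone 2, with log2 fold changes of -0.24 ± 0.05 and -0.25 ± 0.05, and the call in clone 1 ended without its replicate 1 (-0.14, adjusted p = 0.0926). The rest of the 11 main carriers, a list fixed by name that leaves out abundant members such as Slc38a10, Slc7a7 and Slc7a6, were not called in either clone. The log2 values in clones 1 and 2 were -0.01 ± 0.04 and -0.04 ± 0.04 for Slc7a1, 0.07 ± 0.05 and 0.03 ± 0.05 for Slc7a3, and -0.15 ± 0.09 and -0.14 ± 0.09 for Slc1a4. They were 0.17 ± 0.20 and 0.40 ± 0.20 for Slc7a11 and -0.04 ± 0.18 and -0.32 ± 0.18 for Slc38a9, whose standard errors are wider.

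The remaining calls in SL2i were made in 1 clone each and rest on few reads or on 1 library. Slc43a1 had a log2 fold change of -0.90 ± 0.26 in clone 1 (edgeR, adjusted p = 0.00639), with -0.48 and adjusted p = 0.378 without chr8A replicate 2 and -0.71 and adjusted p = 0.118 without clone 1 replicate 1. Slc38a3 was at -0.97 ± 0.36 in clone 1 (adjusted p = 0.0386), a call that ended under 7 settings, among them without clone 1 replicate 2 (-0.64, adjusted p = 0.372), chr8A replicate 1 (0.139) or chr8A replicate 2 (0.11). Slc43a3 was at -1.38 ± 0.34 in clone 2 (adjusted p = 0.000986), and at -1.05 without clone 2 replicate 1 (adjusted p = 0.0602). Slc1a3 was at -0.56 ± 0.20 in clone 2 (adjusted p = 0.0338), and at -0.29 without chr8A replicate 2 (adjusted p = 0.517) and -0.42 without clone 2 replicate 1 (adjusted p = 0.276), and its call also ended with no filter (0.0548) and with only the groups compared (0.0716). For these 4 genes the direct test of clone 2 against clone 1 in SL2i did not pass (adjusted p = 0.569 to 0.765).

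Whether a clone differed from chr8A by another amount in SL2i than in SL was tested as an interaction, the log2 difference in SL2i minus that in SL. For clone 1, 4 members had a positive and 4 a negative interaction that passed, 24.2% of those tested against 17.0% of all genes (7.78% positive, 9.24% negative). For clone 2 it was 5 and 6, or 33.3% against 16.9% (7.69% positive, 9.18% negative). Slc38a2 had the smallest adjusted p among members, with interactions of -0.55 ± 0.05 (edgeR, adjusted p = 1.32e-18) and -0.68 ± 0.05 (adjusted p = 6.4e-24): it was above chr8A in SL and below it in SL2i in both clones. Slc43a2 had 1.12 ± 0.21 and 1.12 ± 0.20, and Slc7a8 had 1.06 ± 0.23 and 1.27 ± 0.23. Slc7a1, higher in the clones in SL and at 205 to 221 CPM in all SL2i libraries, had -0.29 ± 0.05 and -0.28 ± 0.05. These 4 genes passed under every setting run in both clones. Of the main carriers, Slc3a2 (0.00 ± 0.05 and -0.07 ± 0.05), Slc7a11 (-0.02 ± 0.22 and 0.24 ± 0.21), Slc1a4 (-0.25 ± 0.10 in both, adjusted p = 0.0746 and 0.0772), Slc38a1 (-0.00 ± 0.06 and -0.02 ± 0.06) and Slc38a9 (-0.08 ± 0.20 and -0.47 ± 0.20) did not pass in either clone. Slc7a5 (-0.11 ± 0.06), Slc7a3 (-0.10 ± 0.06) and Slc38a4 (0.07 ± 0.05) did not pass in clone 1 and passed in clone 2, with -0.17 ± 0.06, -0.25 ± 0.06 and 0.21 ± 0.05. Slc1a5 passed in both clones, with -0.24 ± 0.06 and -0.18 ± 0.06. Leaving out 1 library ended the calls of Slc7a5 and Slc38a4 in clone 2 and of Slc1a5 in both clones (adjusted p = 0.0537 to 0.481).

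**Figure D4:**
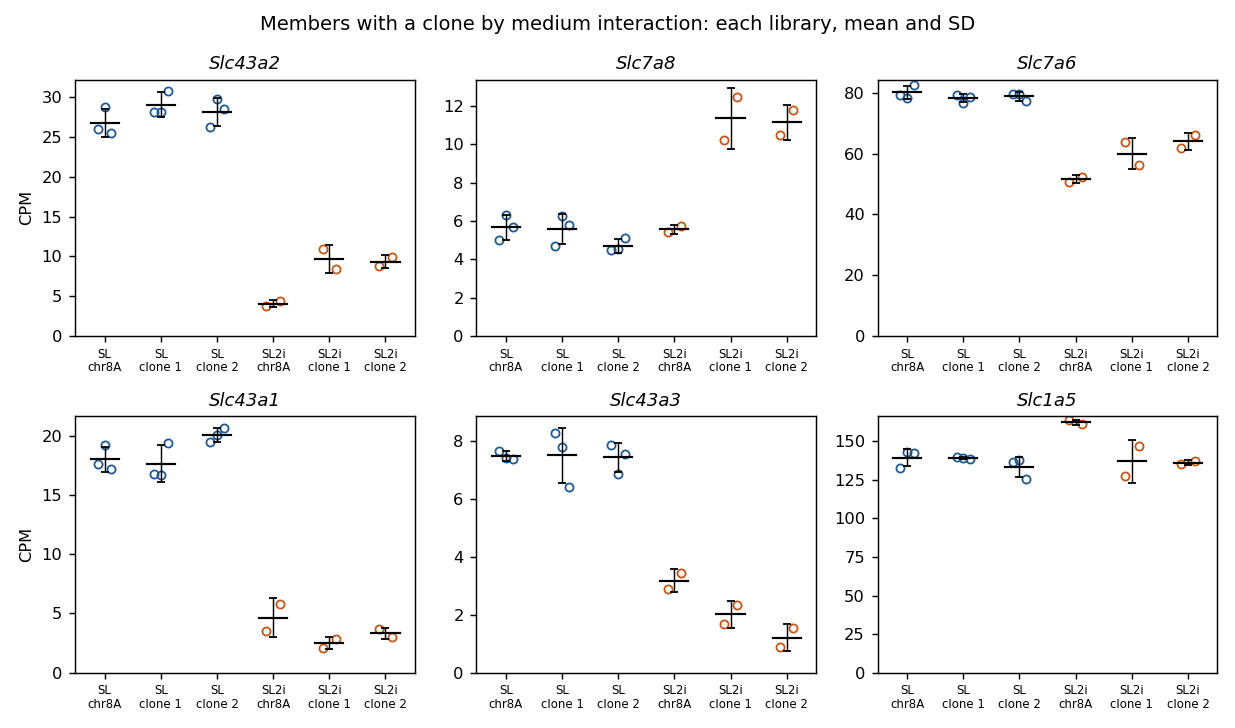
Normalized level in CPM (vertical axis, from 0) of Slc43a2, Slc7a8, Slc7a6, Slc43a1, Slc43a3 and Slc1a5 in each library of the 6 groups of the clone table. Points are libraries, horizontal lines are means and bars are SDs. In SL the 3 lines lie close together, and in SL2i Slc43a2, Slc7a8 and Slc7a6 are higher and Slc1a5 lower in the clones, as described for each gene in the text.

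The clones were also tested against each other. In SL, Slc7a3 was the 1 member of 33 called, against 4.40% of all genes, and was higher in clone 2 by 0.10 ± 0.03 on the log2 scale (edgeR, adjusted p = 0.0245). That call was lost with DESeq2 (adjusted p = 0.132), RLE factors (0.0637), equal depth (0.216) and no filter (0.0929), and without any 1 of the 6 libraries (adjusted p = 0.0601 to 0.271). The log2 differences of the other main carriers ranged from -0.06 ± 0.04 for Slc1a5 to 0.11 ± 0.08 for Slc38a9. Between them were Slc7a1 (-0.04), Slc7a11 (-0.03), Slc7a5 (-0.02), Slc1a4 (0.00), Slc38a4 (0.03), Slc3a2 (0.03), Slc38a1 (0.04) and Slc38a2 (0.04). In SL2i, edgeR called 0 of 33, against 0.157% of all genes, with 3 members at an unadjusted p under 0.05 and 0 called by DESeq2. The lowest adjusted p there was that of Slc38a4, with a log2 difference of 0.17 ± 0.04 (adjusted p = 0.0654). The others at an unadjusted p under 0.05 were Slc38a2 (-0.08 ± 0.04, adjusted p = 0.53) and Slc38a3 (0.79 ± 0.37, 0.569). Slc43a3 differed by -0.73 ± 0.38 without passing (adjusted p = 0.614). Of the main carriers, Slc38a9 was at -0.28 ± 0.19 and Slc7a11 at 0.23 ± 0.19, and Slc7a5 (-0.08), Slc3a2 (-0.04), Slc7a3 (-0.04), Slc7a1 (-0.03), Slc1a5 (-0.01), Slc1a4 (0.01) and Slc38a1 (0.02) lay closer to 0. With 2 libraries per group, a p that misses the threshold does not show that the clones are alike.

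The last question was whether LbNOX changed the carriers in SL. No member passed: edgeR called 0 of 28 tested, against 0.0372% of all 16119 genes, with 0 members at an unadjusted p under 0.05 and 0 called by DESeq2. The lowest unadjusted p was 0.0824, for Slc1a1, which was at 2.67, 2.15 and 3.08 CPM with the vector and 3.37, 3.28 and 3.34 CPM with LbNOX. For 3 of the 28 members the groups did not overlap, beside 9.64% of all genes: Slc1a1 (log2 0.34 ± 0.18), Slc7a11 (-0.11 ± 0.11) and Slc38a1 (-0.05 ± 0.04). Among the other main carriers, Slc7a3 was at -0.05 ± 0.04, Slc1a4 at -0.10 ± 0.07 and Slc38a9 at 0.02 ± 0.10.

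The spread within these groups was wide for several carriers, with 1 library of each group far from the other 2. Slc38a2 was at 742, 932 and 755 CPM with the vector and 727, 722 and 951 CPM with LbNOX, a log2 fold change of -0.02 ± 0.15. Slc38a4 was at 71.0, 110 and 78.1 CPM with the vector and 60.1, 66.2 and 105 CPM with LbNOX, with -0.16 ± 0.30. Vector replicate 2 and LbNOX replicate 3 were the highest for both genes, and without vector replicate 2 the log2 values became 0.10 and 0.05. The same libraries were the lowest of their groups for Slc7a5 (269 CPM of 269 to 327 with the vector, 277 CPM of 277 to 319 with LbNOX), Slc3a2 (307 CPM in each), Slc1a5 (96.7 and 93.7 CPM) and Slc7a1 (122 and 121 CPM). The log2 fold changes of these 4 genes lay between -0.03 and 0.05, with standard errors of 0.07 to 0.12, and changes of the size of these errors were not detectable. Without both libraries together, an alternative chosen after the data were seen, edgeR again called 0 members.

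**Figure D5:**
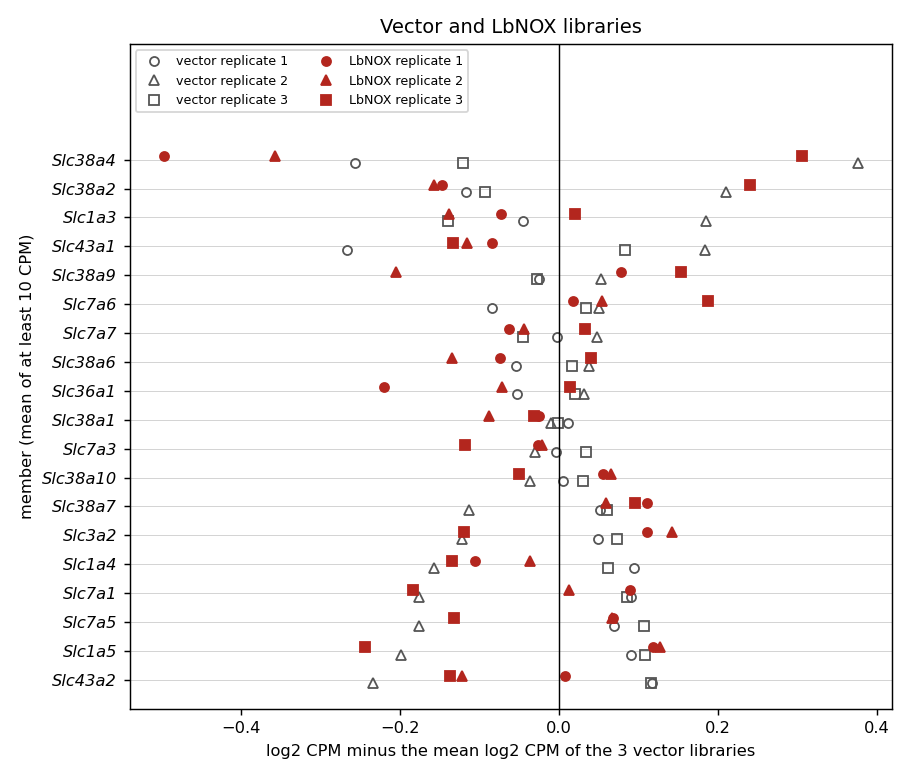
Log2 CPM of each library of the LbNOX table minus the mean log2 CPM of the 3 vector libraries, for the 19 members with a mean of at least 10 CPM, 1 row per member. Symbols mark the 6 libraries. Vector replicate 2 and LbNOX replicate 3 lie on the same side of the other libraries for Slc38a2 and Slc38a4 (right) and for Slc7a5, Slc3a2, Slc1a5 and Slc7a1 (left).

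Between the separately normalized tables, levels of some carriers in SL differed more than within either, and this was not tested. Slc7a7 averaged 240 ± 7.85 (SD, n = 3) CPM with the vector and 133 ± 6.13 CPM in chr8A, and Slc38a4 averaged 86.4 ± 20.8 and 253 ± 12.1 CPM.

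Genes of the ATF4 response, which several carriers share as a regulator, were examined as a list of 22, all tested. Between the media, chr8A and clone 1 each had 4 higher and 15 lower genes, and clone 2 had 4 and 16, with medians of -0.51, -0.80 and -0.82. These were 86.4%, 86.4% and 90.9% of the list, beside 72.8%, 73.0% and 73.1% of all genes. Asns, which makes asparagine, rose by 1.31 ± 0.03, 1.28 ± 0.03 and 1.49 ± 0.03 on the log2 scale, while Psat1 of serine synthesis fell (-0.94 ± 0.03, -1.49 ± 0.03 and -1.36 ± 0.03), as did Ddit4, an inhibitor of mTORC1 (-2.93 ± 0.06, -2.56 ± 0.06 and -2.43 ± 0.06). Atf4 itself had -0.08 ± 0.03, -0.33 ± 0.03 and -0.36 ± 0.03. In SL, clone 1 had 10 higher genes and 1 lower, and clone 2 had 10 and 2, or 50% and 54.5% of the list beside 16.6% and 26.9% of all genes, with Atf4 higher by 0.16 ± 0.03 and 0.19 ± 0.03, Chac1, a glutathione-degrading enzyme, by 0.43 ± 0.06 and 0.37 ± 0.06, and Stc2 by 0.49 ± 0.06 and 0.52 ± 0.06. In SL2i, clone 1 had 3 higher genes and 7 lower, and clone 2 had 3 and 6, or 45.5% and 40.9% beside 22.4% and 20.6% of all genes, among them Phgdh (-0.71 ± 0.06 and -0.62 ± 0.06) and Psat1 (-0.45 ± 0.04 and -0.32 ± 0.04), both of serine synthesis. The interaction of Psat1 was -0.55 ± 0.05 and -0.42 ± 0.05 and that of Phgdh -0.82 ± 0.07 and -0.67 ± 0.07. With LbNOX, edgeR called 0 of the 22.

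Amino acid carriers outside the 6 families gave 15 tested genes of 23. Between the media, chr8A had 5 higher genes and 8 lower, and each clone had 6 and 7, or 86.7% of those tested in each line, beside 72.8%, 73.0% and 73.1% of all genes. Slc6a7, a proline carrier, rose from a mean of 0.577 to 14.8 CPM in chr8A, by 4.68 ± 0.22 on the log2 scale, with 4.61 ± 0.23 and 4.91 ± 0.22 in the clones. Slc6a15, a carrier of branched-chain amino acids and proline, fell (-1.56 ± 0.08, -2.16 ± 0.09 and -2.07 ± 0.08), and Mfsd12, needed for cystine import into lysosomes, rose by 1.80 ± 0.10, 1.81 ± 0.10 and 1.92 ± 0.10. In SL, clone 1 had 2 higher genes and 2 lower and clone 2 had 4 and 2, or 26.7% and 40.0% beside 16.6% and 26.9% of all genes. Slc6a14, a broad carrier of neutral and cationic amino acids, was higher in the clones in SL by 0.74 ± 0.08 and 0.63 ± 0.08. In SL2i, 0 were higher and 3 lower in each clone, 20% of those tested beside 22.4% and 20.6% of all genes, led by the peptide carrier Slc15a1, with -1.26 ± 0.20 and -1.20 ± 0.19. With LbNOX, edgeR called 0 of the 15.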

How the data were processed

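Poly(A) RNA of 21 libraries from mouse ESCs was sequenced with a stranded kit from 500 ng of RNA (RNA integrity number 9.3 to 10, 8 PCR cycles), per the labels' protocols. The values are the deposited read counts per gene, not normalized, in 2 tables. DRAGEN 3.10, featureCounts of Subread and build GRCm39 are named in the submitters' processing notes, and no source used here states the strand setting, so reads of overlapping genes may be shared. The deposited gene length, another column of the authors' tables, was used only for levels per kilobase. 0 columns of values were left without a sample.

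Each table was fitted on its own with edgeR 4.0.16 (R 4.3.3): genes kept by filterByExpr, TMM factors, robust quasi-likelihood F test, 1 mean per group, and Benjamini-Hochberg adjustment over all genes tested in a contrast. A call is an adjusted p under 0.05. CPM values are counts scaled to the TMM-adjusted library size. The fit was tested on simulated counts. Alternatives were DESeq2 1.42.0, RLE factors, no filter, equal depth (thinned to 9784408 counts in the clone table), only the groups compared, a replicate block, and each library left out. Shared words are 30-base words of a gene's GENCODE M21 transcripts found in another gene. All members are accounted for. Named with values were 11 main carriers, the 8 members that rose and fell most between the media, and the 5 in other comparisons, at a mean of at least 1 CPM. The main carriers were Slc3a2, Slc7a5, Slc7a11, Slc7a1, Slc7a3, Slc1a4, Slc1a5, Slc38a1, Slc38a2, Slc38a4 and Slc38a9. Between the media, the uncalled changes of Slc1a5 in both clones and of Slc38a4 in clone 1 are not printed. From the 4 lists of other genes, up to 4 with the smallest adjusted p were eligible. The members and lists were chosen with earlier results of these data known.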

Additional observations from a re-analysis of the deposited data

Results flagged for a closer look

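The difference between a clone and chr8A depended on the medium for the following members, each by the interaction test of edgeR (log2 difference in SL2i minus that in SL, Benjamini-Hochberg adjusted p). For clone 1 these were Slc43a2 (1.12, adjusted p = 1.13e-05), Slc7a8 (1.06, 0.000282), Slc7a2 (0.62, 0.0467), Slc7a6 (0.25, 0.0185), Slc1a5 (-0.24, 0.0031), Slc7a1 (-0.29, 1.17e-05), Slc38a2 (-0.55, 1.32e-18) and Slc43a1 (-0.87, 0.0176). For clone 2 these were Slc7a8 (1.27, 9.27e-06), Slc43a2 (1.12, 1.03e-05), Slc7a2 (0.70, 0.0154), Slc7a6 (0.34, 0.000682), Slc38a4 (0.21, 0.00246), Slc7a5 (-0.17, 0.0366), Slc1a5 (-0.18, 0.0269), Slc7a3 (-0.25, 0.000469), Slc7a1 (-0.28, 2.36e-05), Slc38a2 (-0.68, 6.4e-24) and Slc43a3 (-1.36, 0.0031). Both sets use the same chr8A libraries. In SL, the clones themselves differed in Slc7a3, with 0.10 (edgeR, adjusted p = 0.0245).

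Leaving out 1 library ended several of these calls. Without SL2i clone 1 replicate 1, the interactions of clone 1 were -0.13 for Slc1a5 (adjusted p = 0.211), 0.17 for Slc7a6 (0.246), 0.50 for Slc7a2 (0.213) and -0.67 for Slc43a1 (0.183). Without SL2i chr8A replicate 2, that of Slc43a1 was -0.44 (0.466), and in clone 2 that of Slc7a5 was -0.07 (0.481) and that of Slc38a4 0.16 (0.0537). Without SL2i chr8A replicate 1, Slc7a6 of clone 1 was at 0.24 (0.0848), and at equal depth it was at 0.23 (0.134). Without SL2i clone 2 replicate 1, Slc43a3 was at -1.02 (0.0982), Slc7a5 at -0.08 (0.459) and Slc7a2 at 0.66 (0.0598). Slc7a2 of clone 2 was also lost without SL2i chr8A replicate 1 (0.0792). The interaction of Slc1a5 in clone 2 was lost without either SL2i library of chr8A or of clone 2, SL chr8A replicate 1, or SL clone 2 replicate 1 or 2 (0.0632 to 0.131). Slc7a5 of clone 2 was lost as well without SL chr8A replicate 1 or 3, or SL clone 2 replicate 1 or 2 (0.0663 to 0.121), and Slc7a2 of clone 1 without either SL2i library of chr8A, SL chr8A replicate 1 or 3, or SL clone 1 replicate 2 or 3 (0.0536 to 0.164). Equal depth also ended the interactions of Slc43a1 (0.0574) and Slc7a2 (0.132) in clone 1 and of Slc7a2 (0.114) and Slc7a5 (0.162) in clone 2. DESeq2 ended those of Slc7a2 in clone 1 (0.0947) and of Slc1a5 (0.0973) and Slc7a5 (0.0955) in clone 2. That of Slc7a2 in clone 1 was lost with no filter (0.0698), and that of Slc7a5 in clone 2 with RLE factors (0.0573) and with only the groups compared (0.0586).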

How the results depend on the processing

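Of 141 called values of named members, 106 kept their direction and their call under every alternative that tested them. Of the 141, 35 lost the call at least once and 0 reversed. Some members with few reads were not tested under every alternative. Between the media, Slc38a8 was tested under 9 in clone 1 and 10 in clone 2, against 11 for Slc7a2. The number of members called between the media stayed at 24 to 28 in chr8A, 25 to 29 in clone 1 and 26 to 29 in clone 2. In SL it stayed at 7 to 8 for clone 1 and 7 to 10 for clone 2, in SL2i at 6 to 10 and 8 to 11, and with LbNOX at 0. The interaction of clone 1 gave 8 members, 5 at equal depth, and 5 to 8 with 1 library left out (5 without SL2i clone 1 replicate 1). That of clone 2 gave 11, and 7 to 13 with 1 library left out (7 without SL2i clone 2 replicate 1). Clone 2 against clone 1 in SL gave 1, and 0 with DESeq2, RLE factors, equal depth, no filter and each library left out. In SL2i it gave 0, and 1 with the replicate block. The cause was not tested. In the LbNOX comparison, which had no calls, Slc38a2 (-0.02) lay between -0.16 and 0.10 with 1 library left out, at 0.05 without LbNOX replicate 1 or 2 and at 0.10 without vector replicate 2, and Slc38a4 (-0.16) lay between -0.44 and 0.0525, the latter without vector replicate 2.

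Libraries with equal replicate numbers did not deviate together (correlations of -0.50 to 0.39 in the LbNOX table and -0.08 to 0.12 in the other), so the numbers were not taken as pairs. With the replicate number as a block, the counts of members called were 0 for LbNOX, 27, 28 and 29 for the media, 8 and 9 for the clones in SL, 9 and 10 in SL2i, and 8 and 11 for the interactions. The SL2i groups hold 2 libraries at a lower depth, so small changes and members under 1 CPM are the least certain there, and a library left out leaves 1 that is assumed to vary like the other groups.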

Other observations

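Genes that sense amino acids upstream of mTORC1 formed a list of 33, all tested. Between the media, chr8A had 9 higher genes and 16 lower, clone 1 had 11 and 13, and clone 2 had 6 and 14, or 75.8%, 72.7% and 60.6% of the list, beside 72.8%, 73.0% and 73.1% of all genes, so these counts are near or below the background. Rragb, a Rag GTPase that brings mTORC1 to lysosomes, fell by log2 fold changes of -2.88 ± 0.11, -3.74 ± 0.13 and -4.15 ± 0.13, from a mean of 44.3 to 6.02 CPM in chr8A. The transcription factors of lysosomal genes moved apart, with Tfeb at 1.29 ± 0.08, 1.55 ± 0.09 and 1.48 ± 0.09 and Tfe3 at -0.77 ± 0.04, -0.75 ± 0.04 and -0.90 ± 0.04. In SL, clone 1 had 5 higher genes and 2 lower, and clone 2 had 10 and 4, or 21.2% and 42.4% beside 16.6% and 26.9% of all genes. In SL2i, clone 1 had 8 higher genes and 5 lower, and clone 2 had 5 of each, or 39.4% and 30.3% beside 22.4% and 20.6%, with Rragd at -0.29 ± 0.06 and -0.38 ± 0.06, Castor1, an arginine sensor, at -0.47 ± 0.10 and -0.50 ± 0.10, and Nprl3 of the inhibitory GATOR1 complex at 0.64 ± 0.13 and 0.62 ± 0.13. With LbNOX, edgeR called 0 of 33.

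Enzymes that use the carried amino acids gave 26 tested genes of 27. Between the media, chr8A had 12 higher genes and 11 lower, clone 1 had 12 and 10, and clone 2 had 13 and 12, or 88.5%, 84.6% and 96.2% of those tested, beside 72.8%, 73.0% and 73.1% of all genes. Ass1, which makes the precursor of arginine, rose from a mean of 19.1 to 252 CPM in chr8A, with log2 fold changes of 3.72 ± 0.05, 3.90 ± 0.05 and 3.64 ± 0.05. Tdh, the threonine dehydrogenase on which mouse ESCs depend, rose by 2.04 ± 0.04, 2.20 ± 0.04 and 2.02 ± 0.04, and Bcat1, which transaminates branched-chain amino acids, by 1.61 ± 0.03, 1.75 ± 0.03 and 1.74 ± 0.03. In SL, clone 1 had 8 higher genes and 6 lower, and clone 2 had 9 and 5, or 53.8% in both beside 16.6% and 26.9% of all genes, with Glul, the glutamine synthetase, at 0.17 ± 0.03 and 0.26 ± 0.03. In SL2i, clone 1 had 9 higher genes and 6 lower, and clone 2 had 9 and 7, or 57.7% and 61.5% beside 22.4% and 20.6%. Among the lower genes were Oat, at -0.53 ± 0.06 and -0.44 ± 0.06, and Aldh18a1, at -0.45 ± 0.06 and -0.44 ± 0.06. Both are on the path between glutamate, proline and ornithine. Bcat1 and Gcat were also among the 4 genes with the smallest adjusted p in each clone, and their values are not given here. With LbNOX, edgeR called 0 of 26.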
